A study of Mus musculus with 5 samples.

Results

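The genes described here encode the chemosensory receptors of the nose and the tongue. They were taken from a 2-colour oligonucleotide array by the probe name alone: names of odorant receptors (Olfr, or MOR in the older nomenclature), vomeronasal receptors (Vmn1r, Vmn2r, V1r, V2r) and taste receptors (Tas1r, Tas2r, T1r, T2r). This gave 863 of 24884 genes or probe names, read by 877 of 28845 gene probes, namely 760 for Olfr, 94 for Vmn1r, 12 for Vmn2r, 3 for Tas1r and 8 for Tas2r genes. In all, 860 of the 877 matched a RefSeq symbol and 14 genes had 2 probes each. RNA came from mouse embryoid bodies, aggregates of embryonic stem cells that form heart muscle in culture. The 4 populations were marker-positive cells: cardiac progenitors positive for Nkx2.5 at day 7.5, cardiac mesoderm positive for Flk1 at day 4.5, early mesoderm positive for Bra at day 4.5, and undifferentiated cells positive for Rex1 at day 0. The labels do not give the cell line or how the markers were detected. Of 5 arrays, 3 set Cy5-labelled RNA of the Nkx2.5, Flk1 or Bra population against Cy3-labelled RNA of the Rex1 population. The other 2 set Cy5-labelled Nkx2.5 RNA against Cy3-labelled RNA of the Bra or the Flk1 population. A ratio is Cy5 over Cy3 throughout. Each pair was hybridised on 1 array without a dye exchange, so no value has a spread between samples, no test between populations was made, and dye and population cannot be told apart in any single ratio.

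Odorant receptors are G protein-coupled receptors of olfactory sensory neurons, each of which is known to express a single receptor allele out of a large repertoire kept silent in most other cells. Vomeronasal receptors of the Vmn1r and Vmn2r families are used by sensory neurons of the vomeronasal organ to detect pheromones and other chemosignals. Tas1r receptors detect sweet and umami compounds as dimers that share Tas1r3, and Tas2r receptors detect bitter compounds. Some odorant and taste receptor genes are also known to be expressed outside sensory organs. Many receptor genes lie in clusters of closely related copies. The oligonucleotide sequences were not used here, so whether a probe also binds a related receptor or an unrelated transcript was not tested.

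Of 863 receptor genes or names, 717 had a promoter in the RefSeq table of GRCm38.p6, with 720 promoters in all. The 250 bases upstream of the annotated start are shown, 5′ to 3′, for the odorant receptors called higher in Nkx2.5 than in both Rex1 and Bra and for the receptor called lower in each comparison with Rex1. Olfr716 (chr7:107147048-107147297, plus strand) and Olfr273 (chr4:52856512-52856761, minus strand) belong to the first kind, and Vmn2r37 (chr7:9223654-9223903, minus strand) is the second. Capitals mark a match to 1 of 3 motifs searched on both strands: CCCNNGGG, the palindrome of the Ebf (O/E) factors of olfactory neurons, TAATTA, a homeodomain core, and TATAAA, the TATA box. The motifs may share bases where they meet.
Olfr716: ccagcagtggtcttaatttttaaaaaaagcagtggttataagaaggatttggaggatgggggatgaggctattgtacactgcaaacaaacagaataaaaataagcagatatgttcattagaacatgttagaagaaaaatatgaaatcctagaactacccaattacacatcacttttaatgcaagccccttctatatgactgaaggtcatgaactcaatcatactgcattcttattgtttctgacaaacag
Olfr273: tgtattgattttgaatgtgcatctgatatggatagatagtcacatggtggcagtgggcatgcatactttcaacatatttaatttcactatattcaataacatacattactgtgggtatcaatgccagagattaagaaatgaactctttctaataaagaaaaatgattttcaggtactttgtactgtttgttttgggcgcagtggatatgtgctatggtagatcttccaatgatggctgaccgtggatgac
Vmn2r37: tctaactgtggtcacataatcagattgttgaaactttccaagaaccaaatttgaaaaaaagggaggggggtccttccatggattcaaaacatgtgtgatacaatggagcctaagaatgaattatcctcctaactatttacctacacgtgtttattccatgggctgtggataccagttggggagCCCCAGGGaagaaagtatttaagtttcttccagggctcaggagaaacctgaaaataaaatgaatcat

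The Vmn2r37 window held 1 match, to CCCNNGGG, and the windows of Olfr716 and Olfr273 held none of the 3 motifs. Among the promoters of the array's receptors 2.78% held CCCNNGGG, against 12.02% of 32121 other promoters. TAATTA was in 17.5% of receptor promoters and 4.56% of the others, and TATAAA in 38.3% and 11.8%. The receptor windows were richer in A and T: their median GC content was 33.6%, against 52.4% in the others. These are matches of letters and say nothing of binding. Whether each annotated start is where transcription begins was not tested.

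The signal of the receptor probes was first set against the 96 negative control spots of each array. A probe was called well above background in a channel where its net signal passed percentile 95 of those spots. All 96 were used, also those marked Bad. These were 52 on the Nkx2.5 over Rex1 array, 31 on Flk1 over Rex1 and 15 on Bra over Rex1. On Nkx2.5 over Flk1 they were 18 and on Nkx2.5 over Bra 7. Receptor probes passed it less often than other gene probes in each of the 10 channels, in 65.5% to 88.1% of cases against 78.0% to 95.4%. The lowest share was in Rex1 RNA on the Bra over Rex1 array, with 65.5% of receptor probes against 78.0% of other probes. The highest was in Nkx2.5 RNA on the Nkx2.5 over Rex1 array, with 88.1% against 93.9%. On spots that carried no probe, 0% to 5.36% passed.

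Most receptor probes therefore gave more signal than a negative control, but less than the rest of the array. On the Nkx2.5 over Rex1 array the median receptor signal in Nkx2.5 RNA was 7.97 times the negative control median, against 10.2 times for other probes. In Rex1 RNA of the same array it was 2.65 times, against 3.43 times. Over the 10 channels, 28.5% to 38.0% of other probes lay below the receptor median. In all, 521 of 877 receptor probes (59.4%) passed in every channel, against 73.6% of other gene probes, and 53 (6.04%) passed in none, against 2.41%. A signal above negative control spots is a property of the probe on the array and does not by itself show transcription of the named gene.

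**Figure D1:**
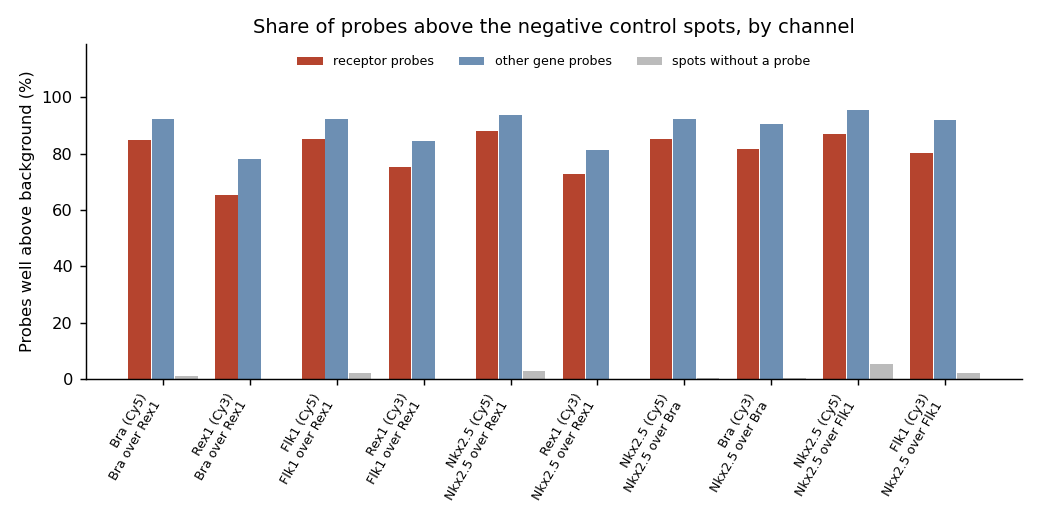
The percentage of probes that passed the background threshold in each of 10 channels, with 1 bar each for receptor probes, other gene probes and spots without a probe. Each channel is named by the population whose RNA it held, its dye and its array. Receptor probes lie between 65.5% and 88.1% and below the other gene probes in every channel.

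The families differed in signal. All 10 channels were passed by 460 of 760 Olfr probes, 48 of 94 Vmn1r probes, 9 of 12 Vmn2r probes, 2 of 3 Tas1r probes and 2 of 8 Tas2r probes. The brightest Olfr probes by mean log2 signal were Olfr1295, Olfr606 and Olfr186, with 12.1 to 30.4 times the background threshold over all channels. Their 5 log2 ratios stayed between -0.15 and 0.18. The brightest Vmn1r probes, Vmn1r83, Vmn1r75 and Vmn1r44, had ratios between -0.06 and 0.20. These 6 bright probes gave nearly the same normalised signal in both channels of each array. Vmn2r37, among the 3 brightest Vmn2r probes, did not: it had ratios of -1.36 to -1.68 against Rex1.

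As a group the receptor probes were centred on 0. Their median log2 ratio was 0.0038 in Bra over Rex1, 0.033 in Flk1 over Rex1, 0.0064 in Nkx2.5 over Rex1, 0.026 in Nkx2.5 over Bra, and it was 0.0063 when Nkx2.5 was set over Flk1. Other gene probes had medians of 0.0011 to 0.0065. The SD across receptor probes was 0.531 in Nkx2.5 over Rex1, against 0.480 for other probes, and 0.230 in Nkx2.5 over Bra, against 0.238.

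Each comparison was read along 2 routes, as the direct array and as the sum or difference of the other arrays that link the same populations. For Flk1 over Bra, which shared no array, the routes ran through Rex1 and through Nkx2.5. For the receptor probes the gap between routes had an SD of 0.409 by way of Bra and 0.499 by way of Flk1, against 0.395 and 0.446 for other probes. Taking each array's error as independent and of the same size, the gaps over all probes give 0.244 (log2) as the average error of 1 array. A probe was called where the log2 ratio was at least 1 in size and had the same sign along both routes, a fold of 2. Its brighter population also had to pass the background threshold on at least 50% of its channels.

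By this rule 42 receptor probes were called in at least 1 comparison and 835 in none. In Nkx2.5 over Rex1, 37 receptor probes were higher, with a background of 2.74% of all gene probes called higher, and 5 were lower, with a background of 0.742%. In Bra over Rex1, 13 were higher (all probes 1.27%) and 1 was lower (all probes 0.253%). In Flk1 over Rex1, 8 were higher (all probes 0.749%) and 1 was lower (all probes 0.291%). With median centring in place of loess, Flk1 over Rex1 had 4 higher (0.456%, all probes 0.676%) and 4 lower (0.456%, all probes 0.336%). The authors' deposited table of log2 ratios had values for 837 receptor probes. In it 15 were higher (1.79%, all probes 1.32%) and 7 lower (0.836%, all probes 0.656%) in Nkx2.5 over Rex1. In Bra over Rex1 4 were higher (0.478%, all probes 0.473%) and 1 lower (0.119%, all probes 0.180%), and in Flk1 over Rex1 1 was higher (0.119%, all probes 0.293%) and 2 lower (0.239%, all probes 0.226%). These 3 comparisons share the Rex1 RNA. The second route of Bra over Rex1 and of Flk1 over Rex1 ran through the Nkx2.5 over Rex1 array, and that of Nkx2.5 over Rex1 through both other Rex1 arrays.

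Between the later populations few were called. In Nkx2.5 over Bra 3 were higher (all probes 0.319%) and 0 lower (all probes 0.0728%). In Nkx2.5 over Flk1 3 were higher (all probes 0.34%) and 0 lower (all probes 0.101%). In Flk1 over Bra none was called, where 0.0173% of all probes were higher and 0.00347% lower. The share of receptor probes called higher in Nkx2.5 over Rex1, 4.22%, was above its background. The shares called higher in Bra over Rex1, 1.48%, and in Flk1 over Rex1, 0.912%, were close to theirs, and every other receptor share was close to or below its background.

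The calls followed the position of the probes on the array. Spots were laid out in 12 rows and 4 columns of blocks, and 33 of the 37 receptor probes higher in Nkx2.5 over Rex1 lay in the last 2 block rows, 11 and 12. So did all 13 of those higher in Bra over Rex1 and all 8 of those higher in Flk1 over Rex1. These rows held 146 receptor probes, 16.6% of them, and 16.5% of the other gene probes. Other gene probes were also called more often in these rows, though less often than receptor probes. In Nkx2.5 over Rex1, 13.3% of other probes in rows 11 and 12 were called higher, beside 22.6% of receptor probes there. In the first 10 rows it was 0.587% of other probes and 0.547% of receptor probes. The gap between routes was also larger for receptor probes of rows 11 and 12. By way of Bra its median was 0.182 (SD 0.426), against 0.021 (SD 0.401) in the first 10 rows. By way of Flk1 it was 0.305 (SD 0.600), against 0.025 (SD 0.453). The average error of 1 array, 0.244, was taken over all gene probes and not within these rows.

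**Figure D2:**
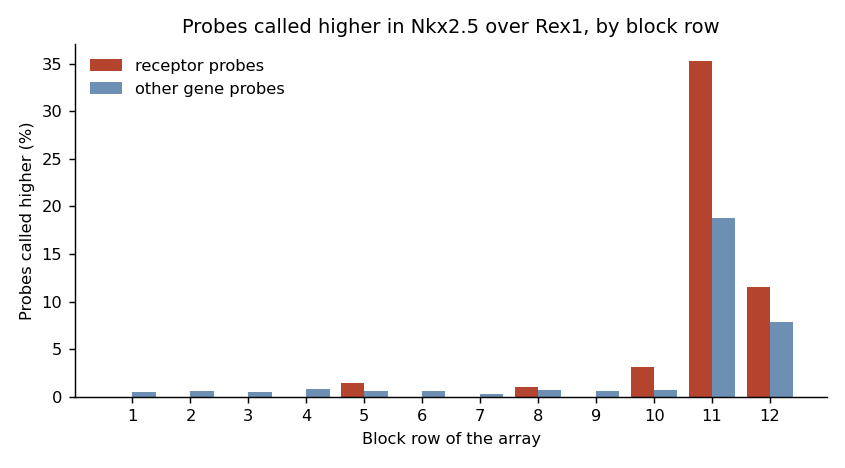
The share of probes called higher in Nkx2.5 over Rex1, in percent, by block row of the array, for receptor probes and for other gene probes. Row 11 holds 35.3% of receptor probes called against 18.8% of other probes, row 12 holds 11.5% against 7.85%, and no earlier row passes 3.08% in either set.

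The local background of the Cy3 channel was highest in the same rows. On the Nkx2.5 over Rex1 array it was 9477.5 to 10159.5 intensity units in the blocks of rows 11 and 12, against 7724.5 to 9323 in the first 10 rows, with no overlap. The Cy3 ranges did not overlap on the other 4 arrays either, for example 9121 to 10168 against 7643.5 to 8917.5 in Bra over Rex1. The Cy5 ranges overlapped on all 5 arrays, with 3671.5 to 4212.5 against 3328.5 to 3920.5 in Nkx2.5 over Rex1. Rex1 RNA was in Cy3 on all of its arrays, so in these rows its signal was what remained after the highest background was subtracted. Bra RNA in Cy3, set against Nkx2.5, had the same step, with 7590 to 8417.5 against 6212.5 to 6983.5. In that comparison 0.411% of other gene probes in rows 11 and 12 were called higher, and 0.300% in the first 10 rows. With Flk1 RNA in Cy3 these shares were 0.475% and 0.313%. Whether the Cy3 background gave rise to the calls was not tested.

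With loess fitted within each block in place of the whole array, 6 receptor probes were higher (0.684%, all probes 0.794%) and 3 lower (0.342%, all probes 0.572%) in Nkx2.5 over Rex1. In Bra over Rex1 0 were higher (all probes 0.170%) and 1 lower (0.114%, all probes 0.260%), and in Flk1 over Rex1 0 were higher (all probes 0.205%) and 1 lower (0.114%, all probes 0.284%). Each share was below that of all probes. The median log2 ratio of the 146 receptor probes of rows 11 and 12 in Nkx2.5 over Rex1 was 0.50 with loess over the array and 0.17 within blocks. For the 4628 other probes of those rows it was 0.31 and 0.0067. The setting was chosen after the data were seen.

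**Figure D3:**
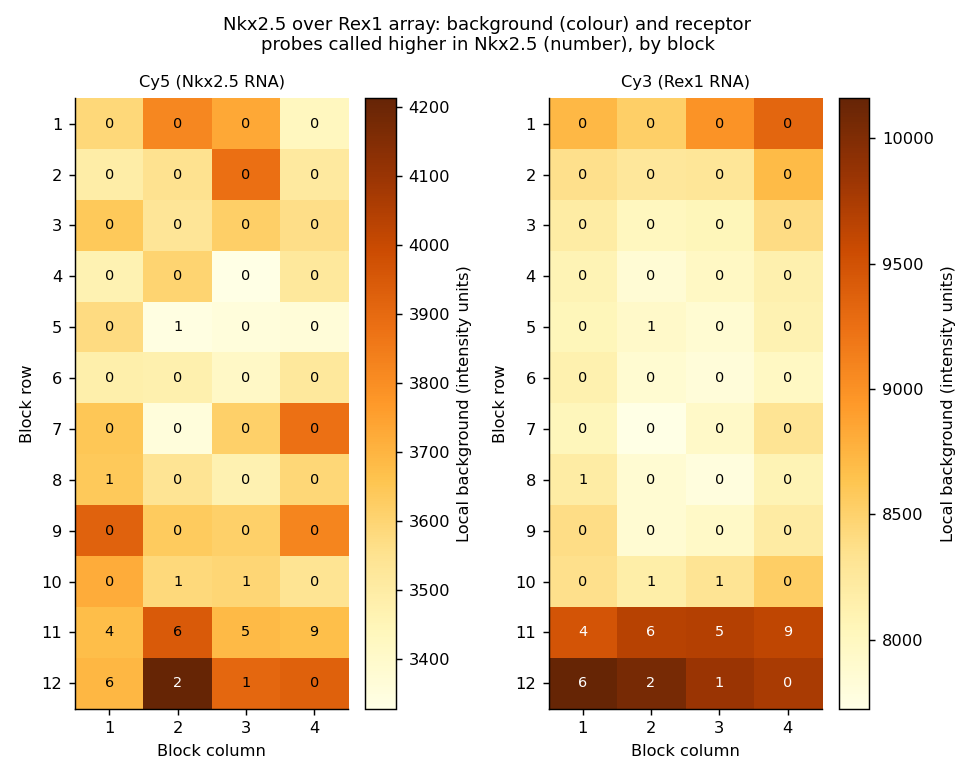
The local background of the Nkx2.5 over Rex1 array in each of its 48 blocks, as colour in intensity units, for Cy5 (left) and Cy3 (right), with the number of receptor probes called higher in Nkx2.5 written in each block. Blocks of rows 11 and 12 have the highest Cy3 background, 9477.5 to 10159.5, and hold 33 of the 37 calls.

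Dim signal went with the calls as well. In rows 11 and 12, 67 of 146 receptor probes (45.9%) were not well above background in Rex1 RNA on any of its 3 arrays, against 24.8% of other probes there. Of these dim receptor probes 32.8% were called higher in Nkx2.5 over Rex1, and of the dim other probes 31.4%. Among probes that were not dim it was 13.9% of receptor probes and 7.36% of other probes. In the first 10 rows the dim receptor probes were called in 0.862% of cases and the dim other probes in 0.821%. Where Rex1 was not well above background the ratio does not measure the fold. A lower bound was set in place of it from the lowest signals well above background in Rex1 RNA. These were taken over all gene probes of the array, not within rows 11 and 12. Of the 23 dim receptor probes called higher in Nkx2.5 over Rex1, 13 had a bound of at least 1-fold and 2 had a bound of at least 2-fold, Vmn1r23, where it lay above both readings, and Olfr1356. The other 10 had no bound above 1-fold.

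Outside rows 11 and 12, 9 receptor probes were called in at least 1 comparison. In Nkx2.5 over Rex1, 4 of 731 were higher (all probes there 0.586%) and 5 lower (0.847%). In Bra over Rex1, 0 were higher (0.12%) and 1 lower (0.274%), and in Flk1 over Rex1, 0 were higher (0.141%) and 1 lower (0.307%). In Nkx2.5 over Bra, 2 were higher (0.299%) and 0 lower (0.0706%), and in Nkx2.5 over Flk1, 1 was higher (0.307%) and 0 lower (0.108%). In Flk1 over Bra none was called (0.0208% higher and 0% lower). Each receptor share lay at or below its background here.

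**Figure D4:**
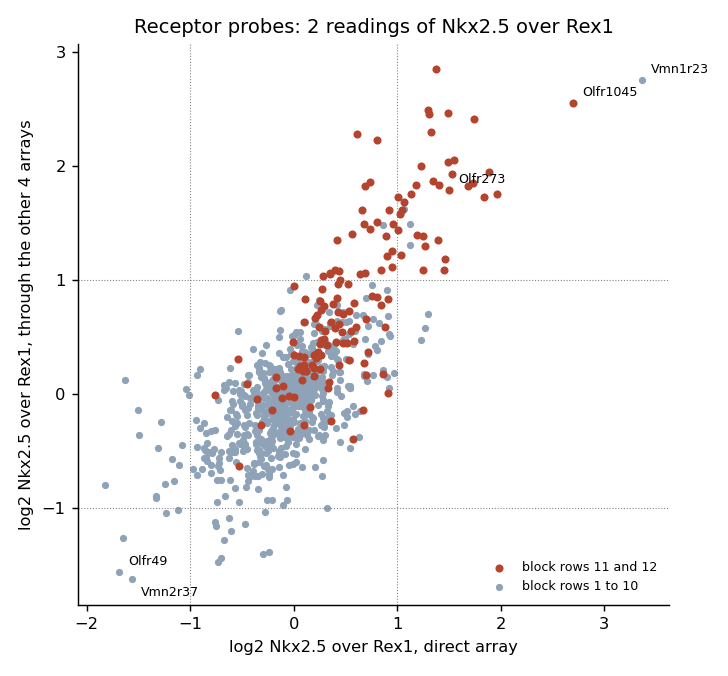
Each point is 1 receptor probe, with its log2 ratio of Nkx2.5 over Rex1 on the direct array (horizontal axis) and through the other 4 arrays (vertical axis). Probes of block rows 11 and 12 (red) make up 33 of the 37 probes called in the upper right region, where both readings reach 1, and Vmn1r23, from row 5, lies furthest out on the direct array at 3.37.

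Vmn1r23 had the highest direct ratio of all receptor probes in Nkx2.5 over Rex1. It encodes a vomeronasal receptor of the Vmn1r family, its gene is on chromosome 6, and its probe carried the older name V1rc24. On the Nkx2.5 over Rex1 array its net signal was 10428.5 in Nkx2.5 RNA and 1118.5 in Rex1 RNA. On the Nkx2.5 over Bra array it was 17149 in Nkx2.5 RNA and 4976.5 in Bra RNA. On the Nkx2.5 over Flk1 array it was 17742 in Nkx2.5 RNA and 4154.5 in Flk1 RNA. Nkx2.5 was the brighter population on each of its 3 arrays.

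On the other arrays the Vmn1r23 signal was low: 1631.5 in Bra RNA against 501 in Rex1 RNA, and 1097 in Flk1 RNA against 654 in Rex1 RNA. The background threshold was 1368 for that Bra channel and 950 for that Flk1 channel, so both passed, whereas Rex1 did not pass on any of its 3 arrays. The log2 ratios were 3.37 and 2.75 in Nkx2.5 over Rex1, 2.59 and 2.85 in Nkx2.5 over Bra, and 2.04 and 3.01 in Nkx2.5 over Flk1, with the direct array first. All 3 comparisons called it. In Bra over Rex1, at 0.52 and 0.78, and Flk1 over Rex1, at 0.35 and 1.33, it was not called.

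Because Rex1 was not well above background, the fold of Vmn1r23 over Rex1 was not measured. The bound from per-channel levels, which are open to dye bias, had a log2 of 3.43, above both readings, and no fold is taken from it. The spot was marked Bad on the Bra over Rex1 array. With readings that use Bad spots left out, Vmn1r23 was still called in Nkx2.5 over Rex1 and Nkx2.5 over Flk1 and no longer in Nkx2.5 over Bra. Without background subtraction its ratios were 1.04, 1.18 and 1.13 on the 3 arrays with Nkx2.5, and it was the 1 receptor probe called in any comparison. With loess within blocks they were 3.29, 2.61 and 2.09. In the authors' deposited table they were 2.81, 1.88 and 1.64, the ratio of Bra over Rex1 was 2.16, and Vmn1r23 was called in Nkx2.5 over Rex1 and Nkx2.5 over Flk1 but not in Nkx2.5 over Bra.

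The ratios of Vmn1r23 lay above those of its surroundings on the array and in the genome on the 3 arrays with Nkx2.5. The 8 gene spots next to it had ratios between 0.09 and 0.96 in Nkx2.5 over Rex1 and between -0.03 and 0.40 in Nkx2.5 over Bra. The 47 gene spots at the same place in other blocks reached at most 1.53 and 0.81. The 26 other probes named V1rc lay between -0.83 and 1.30 in Nkx2.5 over Rex1 and between -0.54 and 0.45 in Nkx2.5 over Bra. The 5 nearest Vmn1r genes of the array on each side on chromosome 6, from Vmn1r17 to Vmn1r28, reached at most 0.97 and 0.23. The highest value of the 93 other Vmn1r probes in Nkx2.5 over Bra was 1.38. The distance was smallest in Nkx2.5 over Flk1, where Vmn1r23 stood at 2.04. There the spots at the same place in other blocks reached 1.45 and the other Vmn1r probes 1.52.

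The genes whose 5 ratios lay closest to those of Vmn1r23 were ranked by Euclidean distance over the 5 arrays, among 18243 named probes whose brightest population was well above background. Among the nearest were Myl7, the atrial myosin regulatory light chain, at 0.878, Tnnt2, cardiac troponin T, at 1.08, Clu, the secreted chaperone clusterin, at 1.28, and Hbb-y, an embryonic beta globin, at 1.29. The median distance was 4.78. On the Nkx2.5 over Bra array Myl7 stood at 2.75 and Tnnt2 at 2.59, beside 2.59 for Vmn1r23. The nearest receptor probe was Olfr273, at 2.44. Closeness over 5 ratios that share their populations describes the pattern and nothing more.

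**Figure D5:**
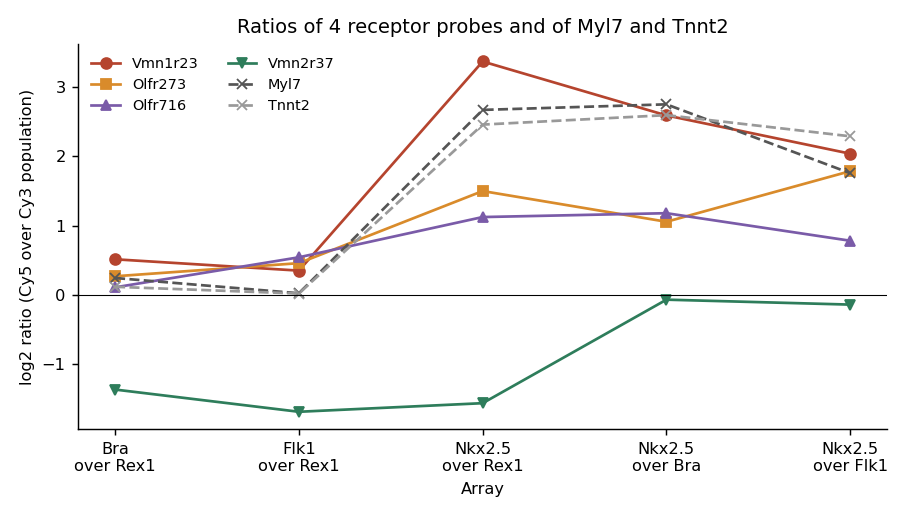
The log2 ratio (vertical axis) on each of the 5 arrays (horizontal axis) of 4 receptor probes, with Myl7 and Tnnt2 as broken lines. Vmn1r23 lies at 2.04 to 3.37 on the 3 arrays with Nkx2.5, next to Myl7 and Tnnt2, and at 0.35 to 0.52 on the others, while Vmn2r37 lies at -1.36 to -1.68 on the 3 arrays with Rex1.

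Olfr273, an odorant receptor gene on chromosome 4 whose probe was named MOR262-8, was also called higher in Nkx2.5 against each other population. Its net signal in Nkx2.5 RNA was 2130.5 against 612 in Rex1 RNA, 4286 against 1448 in Bra RNA and 3683 against 673 in Flk1 RNA, on the arrays that paired them. On the remaining arrays it was 1379.5 in Bra RNA against 561.5 in Rex1 RNA, and 709 in Flk1 RNA against 154 in Rex1 RNA. It passed the background threshold in all 3 Nkx2.5 channels, in 1 of 2 Bra channels and in none of the Flk1 and Rex1 channels. The ratios were 1.50 and 1.79 in Nkx2.5 over Rex1, 1.06 and 1.23 in Nkx2.5 over Bra, and 1.79 and 1.04 in Nkx2.5 over Flk1.

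The bound for Olfr273 was at least 1.60-fold over Rex1, and both readings reached it. Over Flk1 the bound was 2.43-fold, which the second reading, a log2 of 1.04, did not reach, and no fold is taken from it. The probe lies in block row 12, and without background subtraction its ratio turned to -0.026 in Nkx2.5 over Rex1, with 0.37 in Nkx2.5 over Bra and 0.25 in Nkx2.5 over Flk1. Within blocks the ratios were 1.33, 1.05 and 1.55, and it was called in Nkx2.5 over Rex1 and Nkx2.5 over Bra. With Bad spots left out the call in Nkx2.5 over Flk1 was lost, and with median centring that in Nkx2.5 over Bra. In the authors' deposited table Olfr273 was called in Nkx2.5 over Rex1 alone: the readings were 1.66 and 0.82 in Nkx2.5 over Bra and 1.99 and -0.23 in Nkx2.5 over Flk1, and Flk1 over Rex1 stood at 1.61, against 0.46 with loess. The 8 gene spots beside it reached 0.45 in Nkx2.5 over Rex1, and the 6 other MOR262 probes 0.91.

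Olfr716, on chromosome 7 and in block row 10, was the other odorant receptor called higher in Nkx2.5 over Bra, at 1.18 and 1.01. Its net signal was 10042 in Nkx2.5 RNA against 6231 in Bra RNA, and 4954.5 in Nkx2.5 RNA against 1988 in Rex1 RNA. It was also called in Nkx2.5 over Rex1, at 1.12 and 1.31, and not in Nkx2.5 over Flk1, at 0.78 and 0.58. It was well above background in all 10 channels. Within blocks its call in Nkx2.5 over Bra was lost. Without background subtraction its direct ratios were 0.48 in Nkx2.5 over Bra and 0.31 in Nkx2.5 over Rex1, and in the authors' deposited table they were 0.79 and 0.90, with no call. Olfr1112, at 1.07 and 1.62, and Olfr1195, at 1.12 and 1.49, were the other 2 probes called higher in Nkx2.5 over Rex1 outside rows 11 and 12. Both genes are on chromosome 2. Their readings of Nkx2.5 over Flk1 disagreed, with 1.12 and -0.07 for Olfr1112 and 1.45 and 0.74 for Olfr1195. Both were still called within blocks. Neither was called in the authors' deposited table.

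Vmn2r37 was lower in all 3 comparisons with Rex1. It encodes a receptor of the Vmn2r family, its gene is on chromosome 7, and its probe was named V2r14. Its net signal was 4310 in Bra RNA against 5711 in Rex1 RNA, 2688 in Flk1 RNA against 5740 in Rex1 RNA, and 2741 in Nkx2.5 RNA against 5149.5 in Rex1 RNA. The ratios were -1.36 and -1.49 in Bra over Rex1, -1.68 and -1.42 in Flk1 over Rex1, and -1.56 and -1.62 in Nkx2.5 over Rex1. Between the later populations it stood at -0.07 on the Nkx2.5 over Bra array and at -0.14 on the Nkx2.5 over Flk1 array. It was above background in all 10 channels, and within blocks it was called lower in the same 3 comparisons. Without background subtraction its ratios were -0.51, -0.56 and -0.57 on the arrays with Rex1.

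The other 4 probes lower in Nkx2.5 over Rex1 were odorant receptors. Olfr49 had ratios of -1.68 and -1.56, Olfr1100 of -1.65 and -1.27, Olfr971 of -1.23 and -1.05, and Olfr686 of -1.12 and -1.02. In that order, their net signal was at most 2.10, 1.82, 1.78 and 2.72 times the background threshold in any channel. Without background subtraction their direct ratios were -0.37, -0.21, -0.28 and -0.17, and none was called. In the authors' deposited table Olfr686 was not called, at -0.91 and -1.01, and the others were. All 5 lower probes lay in block rows 1 to 6. Within blocks Olfr49 and Olfr686 were still called, beside Vmn2r37.

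In rows 11 and 12 the named probes with high ratios were Olfr1045, Olfr1356, Olfr27, Olfr419, Olfr218 and Olfr1247, on chromosomes 2, 10, 9, 1, 1 and 2. All 6 were not well above background in Rex1 RNA, so their ratios have no order. In Nkx2.5 over Rex1 the bound was at least 1.50-fold for Olfr1045, at least 1.32-fold for Olfr27 and at least 1.14-fold for Olfr1247, and Olfr419 and Olfr218 had none above 1-fold. Olfr1045 had ratios of 2.70 and 2.55 in Nkx2.5 over Rex1, 1.88 and 2.21 in Bra over Rex1 and 1.62 and 1.61 in Flk1 over Rex1, and it was the third receptor probe called in Nkx2.5 over Flk1, at 1.09 and 1.08. Its net signal was 3120.5 in Nkx2.5 RNA against 201.5 in Rex1 RNA, and its spot was marked Bad on 4 of 5 arrays. Without background subtraction its ratio in Nkx2.5 over Rex1 was 0.09. Olfr1356 had 1.88 and 1.94 in Nkx2.5 over Rex1, and its bound of at least 2.86-fold was reached by both readings. Without background subtraction that ratio was -0.028.

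Some genes had a probe in rows 11 and 12 and another elsewhere. For Olfr27 the probe in row 11 had log2 ratios of 1.73, 2.18 and 1.74 in Bra, Flk1 and Nkx2.5 over Rex1. The probe in row 9 had -0.53, 0.07 and -0.14. For Olfr31 the probe in row 12 had 1.32, 1.75 and 1.33, and the probe in row 5 had -0.06, -0.17 and -0.05. Olfr6, with probes in rows 6 and 12, differed by at most 0.574, and the Vmn2r89 probes, in rows 8 and 12, by at most 0.333. Of 14 genes with 2 probes, 4 differed by more than 1 on some array. Beside Olfr27 and Olfr31 these were Olfr1061, with probes in rows 2 and 4 and a gap of 1.84, and Olfr46, in rows 1 and 9 and with 1.02. The row 11 probe of Olfr27 and the row 12 probe of Olfr31 were dim in Rex1, with bounds of at least 1.32-fold and 1.60-fold in Nkx2.5 over Rex1. The probes of a gene may read different parts of it, and whether position sets these gaps was not tested.

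No taste receptor probe was called in any comparison. At most 2.74% of all gene probes were called in any comparison and direction. An absence of calls among 3 Tas1r and 8 Tas2r probes does not tell them apart from other probes. Tas1r1, Tas1r2 and Tas1r3, the sweet and umami receptor subunits, had ratios between -0.78 and 0.69 on the 5 arrays. Tas1r2 and Tas1r3 were above background in all 10 channels and Tas1r1 in 9. The 8 Tas2r probes had ratios between -0.71 and 0.84. Tas2r116 and Tas2r119 passed in all 10 channels, Tas2r103 in none, and Tas2r102, at 0.84 in Nkx2.5 over Rex1, lay in row 12.

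Of 7 odorant receptor genes known outside sensory tissue 6 were on the array, and 0 of 6 probes were called in any comparison. With at most 2.74% of all gene probes called in any comparison and direction, a count of 0 among 6 does not tell them apart from other probes. Their median log2 ratio was -0.18 in Nkx2.5 over Rex1, against 0.0064 for all receptor probes. Olfr78, a receptor for short-chain fatty acids known from kidney and carotid body, was above background in all 10 channels with ratios between -0.16 and 0.0028. Olfr16 and Olfr544, the azelaic acid receptor, had -0.38 and 0.06 in Nkx2.5 over Rex1. Of 7 taste receptor genes described in rodent heart 3 were on the array, Tas1r1, Tas1r3 and Tas2r108, and none was called. Nor does this count tell them apart from other probes.

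The signalling genes of chemosensory cells were read from lists. Of 15 olfactory sensory neuron genes 5 were on the array with 6 probes, of which 0 were higher in any comparison. Gng13, a G protein gamma subunit, was lower in Nkx2.5 over Rex1 at -1.87 on the direct array. Omp, the olfactory marker protein, had ratios between -0.43 and 0.49. Gnal, the olfactory G protein alpha subunit, passed background in 1 of 10 channels. The list median was -0.39 in Nkx2.5 over Rex1.

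Of 8 vomeronasal neuron genes, all on the array with 10 probes, 1 was higher in Nkx2.5 over Rex1 and in Bra over Rex1: H2-M10.1, a class I histocompatibility gene, at 1.75 and 1.38 on the direct arrays. Its probe lies in row 11 and was dim in Rex1. Trpc2, the vomeronasal channel, had ratios between -0.46 and 0.0009 over its 2 probes. Of 11 taste cell genes 5 were on the array with 8 probes, and none was called. Trpm5, the taste transduction channel, had 2 probes with ratios between -0.04 and 0.49.

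Of 15 genes known to regulate receptor choice 13 were on the array with 20 probes. Lhx2, the homeodomain activator of odorant receptor genes, had ratios between 0.02 and 0.34. The list median was 0.16 in Nkx2.5 over Rex1 and -0.01 within blocks. Of 9 neuronal genes with 12 probes 0 were higher, and Stmn2, a neuronal stathmin, was lower in Nkx2.5 over Rex1 at -1.21. Of 14 other chemosensory receptor genes outside the name rule, such as trace amine receptors, 4 were on the array and none was called.

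Of the 4 genes whose markers name the populations, Zfp42, the gene of Rex1, was called lower in Nkx2.5, Flk1 and Bra over Rex1. It stood at -1.68, -1.76 and -1.74 on the direct arrays. T, Kdr and Nkx2-5 were not called. On the direct arrays T stood at 1.07 in Bra over Rex1, Kdr at 0.68 in Flk1 over Rex1 and Nkx2-5 at 0.53 in Nkx2.5 over Rex1.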

How the data were processed

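The deposited scanner files hold, per the file headers, intensity values for 30000 spots (in both channels, a background beside a median signal) and their ratio. Tested on the files, the background is 1 value for each of 48 blocks of 625 spots and is already subtracted. The authors' deposited series table holds log2 ratios that differ from the scanner ratios by 1 constant per array. Per the labels' protocols, RNA was amplified as amino allyl RNA. The sources used here give neither the scanner software nor a genome build.

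Foreground signals were rebuilt, corrected with normexp (offset 50) and normalised by loess that gave control spots no weight (limma 3.58.1, R 4.3.3). Per-channel levels for bounds came from Aquantile normalisation. Tables were made in Python 3.11.15. Probes were named through RefSeq symbols, synonyms and accessions of GRCm38.p6. The number of arrays, 5, limits the precision.

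The receptor names, the lists and the rule for named probes were chosen with earlier results of these data known. Named probes were Vmn1r23, Olfr273, up to 6 called probes per comparison and direction, the 3 brightest of each family and the 4 widest probe pairs. Other probes called outside block rows 11 and 12 were named once their values were known. Some genes that the rule or the lists would name are not reported here. No p-value was computed.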

Additional observations from a re-analysis of the deposited data

Results flagged for a closer look

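A further 162 gene probes had a description as an olfactory, odorant, vomeronasal, pheromone or taste receptor but a name outside the rule, and entered none of the counts of receptor probes. They gave signal above the negative control spots all the same: 56.2% to 88.3% were well above background by channel, with a median of 81.5% over 10 channels. Of them 3 (1.85%) were called higher in Nkx2.5 over Rex1, against 2.74% of all gene probes, and 1 (0.617%) in Bra over Rex1, against 1.27%. All lay in block rows 11 and 12, and none was called in any other comparison or direction.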

How the results depend on the processing

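Counts of receptor probes called, in either direction, are given first for Bra, Flk1 and Nkx2.5 each over Rex1, then for Nkx2.5 over Bra and over Flk1. The counts reported were 14, 9, 42, 3 and 3. Without background subtraction they were 0, 0, 1, 0 and 0, and over all gene probes no direction had more than 3 calls. With the deposited series table they were 5, 3, 22, 0 and 3. The last 3 were not those reported, which were all higher in Nkx2.5 over Flk1. They were 1 higher (0.119%, all probes 0.162%), Vmn1r23, and 2 lower (0.239%, all probes 0.0988%), Olfr1313 and Olfr1131. With Bad spots left out they were 7, 4, 26, 2 and 1. Higher calls over Rex1, in the same order, were then 0.770%, 0.386% and 2.66% of receptor probes. Over all gene probes they were 0.784%, 0.558% and 2.11%. From the direct array alone the counts were 34, 50, 53, 4 and 12. Higher calls over Rex1 were there 3.53%, 5.13% and 4.56%, against 3.16%, 3.43% and 3.46% of all probes. Each lower share over Rex1 was below that of all probes with Bad spots left out and from the direct array alone. Among the deposited values the lower share was above that of all probes in Nkx2.5 over Rex1 (0.836% against 0.656%). It was also above in Flk1 over Rex1 (0.239% against 0.226%), and it was below in Bra over Rex1 (0.119% against 0.180%). Among settings chosen after the data were seen, loess within each block gave 1, 1, 9, 2 and 1, and leaving out the last 2 block rows, where fewer probes remain, gave 1, 1, 9, 2 and 1. Median centring, a detection limit at the highest negative control and no filter on dim probes left each count within 1.5 times. In Flk1 over Bra the count was 0 under every setting that gave one. Over all channels the share of receptor values well above background moved to 75.6% with the highest negative control as the limit and to 73.4% without background subtraction. The median ratio per array stayed within the error of 1 array, 0.244, under each alternative tried.

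Without background subtraction 29 of the 71 called receptor ratios changed sign, all 29 in block rows 11 and 12. With median centring, the deposited table or loess within blocks none did, of 71, 53 and 71 with a value. The 9 among the probes chosen by the naming rule were Olfr419 in Flk1 over Rex1 (-0.061), Olfr1247 in Flk1 over Rex1 (-0.056), Olfr1045 in Bra over Rex1 (-0.060), Flk1 over Rex1 (-0.058) and Nkx2.5 over Flk1 (-0.030), Olfr1356 in Bra over Rex1 (-0.109), Flk1 over Rex1 (-0.097) and Nkx2.5 over Rex1 (-0.028), and Olfr273 in Nkx2.5 over Rex1 (-0.026). The cause was not tested. No paired analysis was possible because each pair of populations has 1 array.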
